A study of Sus scrofa with 18 samples.

Results

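The biceps femoris of pigs, a muscle of the thigh, was compared at day 5 and day 1 of a model of the muscle weakness that follows intensive care. The comparison holds 8 of the 18 Affymetrix porcine arrays of the study, 4 at day 5 and 4 at day 1, and all 23999 probe sets other than 124 Affymetrix controls. The arrays were chosen by their titles, which call the day 5 arrays treatment and the day 1 arrays control. The source and treatment labels of the day 1 arrays instead name the same drugs and sepsis as those of day 5, and the headers of the deposited table call them control. The study used 5 female domestic piglets of 26.9 kg on average (a breed tag names wild boar), which were sedated with isoflurane, morphine and ketamine, ventilated through a tracheotomy, given fluids, glucose and antibiotics, and kept immobile for 5 days. Over that time pancuronium, which blocks neuromuscular transmission, was given at 0.1 mg/kg/h, the corticosteroid betamethasone at 0.1 mg/kg in 2 doses a day, and Escherichia coli endotoxin at 36 µg/kg/h for 1 h. The labels do not say how much of this had been given when the day 1 samples were taken. The series text counts 5 animals for masseter and speaks of the same 4 for biceps femoris, and the labels do not say which array is whose. No animals ventilated without the drugs and endotoxin are among these arrays, so the time under anaesthesia and the treatment cannot be told apart. The p-values measure only the spread between these arrays.

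Limb muscle that is neither loaded nor excited loses contractile protein. This loss is known to run through the ubiquitin-proteasome system, which tags proteins with ubiquitin and degrades them in the proteasome, and through autophagy, which passes cell contents to the lysosome. Glucocorticoids are known to favour both routes in muscle through FOXO transcription factors and to slow protein synthesis, and the slow, oxidative fibre program is known to depend on motor nerve activity. Acute quadriplegic myopathy, the weakness modelled here, is marked by a loss of myosin from the thick filaments.

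Of 23999 probe sets 17.2% were called by limma's test at an adjusted p under 0.05, 9.89% higher and 7.27% lower, and 5.16% were called with a change of at least 2-fold. Genes with several probe sets are given by their probe set of highest mean level, which leaves 9893 genes, and 2274 of these (23.0%) passed the test. The 1338 genes that rose were 13.5% of those tested, the 936 that fell were 9.46%, and 700 genes (7.08%) were called and changed at least 2-fold. The 4 day 5 arrays lay wholly on 1 side of the 4 day 1 arrays for 28.0% of genes, and the median change over all genes was -0.015. Among the pathway lists, the shares of rises were highest in the proteasome, the cytosolic ribosome, the CCT chaperonin and the translation factors. The shares of falls were highest in the respiratory complexes, the citric acid cycle, the collagens and the slow-fibre contractile genes, as the plot of shares by list shows. Values are log2 intensities from RMA, which corrects the background, normalizes the arrays and summarises the probes of each probe set, and a change is the day 5 mean minus the day 1 mean on that scale. Rose and fell are used of genes that passed the test.

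**Figure D1:**
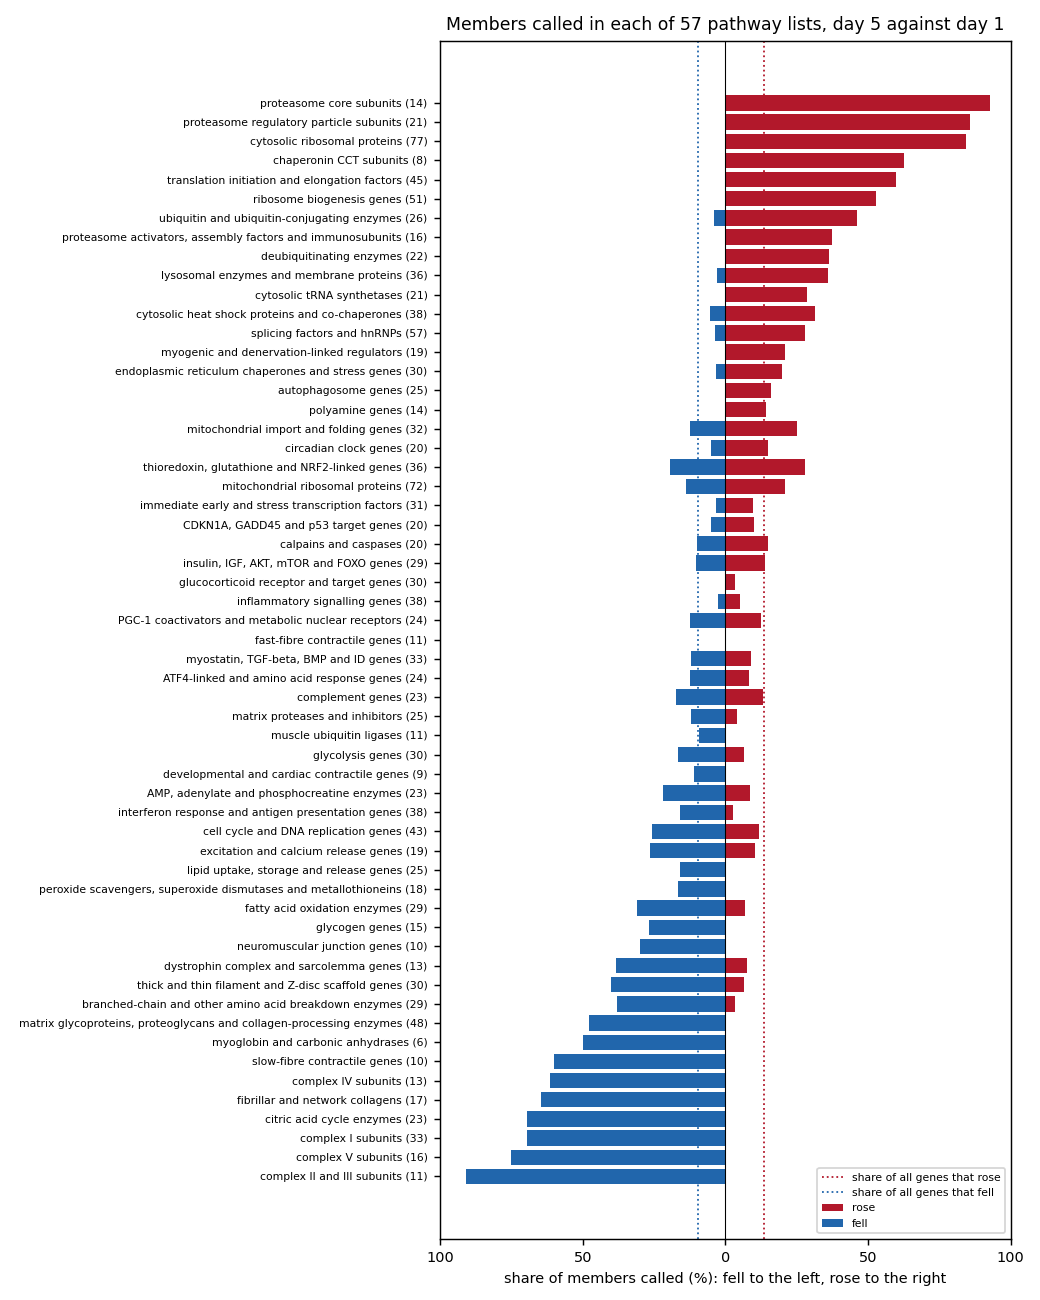
Share of the measured members (number in brackets) of each of 57 pathway lists that rose (red, to the right) or fell (blue, to the left) at day 5 at an adjusted p under 0.05, in percent. The dotted lines mark the shares over all genes, 13.5% for rises and 9.46% for falls. Of the proteasome core subunits 13 of 14 rose. Of the subunits of complexes II and III, with the carrier CYCS counted among them, 10 of 11 fell.

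Some measures of the arrays themselves moved with the day. The bioC spike-in, bacterial RNA added before hybridization, read 8.02, 7.70, 7.84 and 7.78 in the day 5 arrays, against 9.14, 9.19, 9.34 and 8.19 in the day 1 arrays (exact permutation p = 0.0286, two-sided, the smallest that 4 against 4 allows; adjusted p = 0.0572 over 8 spike-ins). Day 1 array 4 thus read nearest to the day 5 arrays and apart from the other day 1 arrays. The bioB, bioD and cre spike-ins, added in the same step, differed by -0.205, -0.075 and -0.039. The lys, phe and thr poly-A spike-ins, added at an earlier step, also separated the days, with the same exact and adjusted p as bioC, and were higher at day 5 by 0.16, 0.14 and 0.244. The dap poly-A spike-in differed by 0.235. With the 2 sets of arrays parted by bioC as a block, the change rests on the 4 day 5 arrays against day 1 array 4 alone. Then 1306 of 23999 probe sets were called, against 4117 (17.2%) without the block, and 1128 were called in both fits, with the same sign. In day 5 array 1 the 3′ probe set of actin exceeded the 5′ probe set by 2.05. The gap was 1.04 to 1.16 in the other day 5 arrays and 1.39 to 1.73 in the day 1 arrays. Such a gap is known to widen with RNA degradation. That of GAPDH hardly varied, with -0.418 in day 5 array 1, -0.464 to -0.452 in the other day 5 arrays and -0.483 to -0.437 in the day 1 arrays. The 28S ribosomal RNA probe set read 13.12, 12.90, 12.65 and 12.09 in the day 5 arrays, against 11.95, 11.69, 11.68 and 12.07 in the day 1 arrays. The 18S probe set read 10.99, 11.30, 11.01 and 10.73 in the day 5 arrays, against 11.12, 11.47, 11.26 and 11.68 in the day 1 arrays. The difference was thus 0.841 for 28S and -0.377 for 18S. Where the spike-in block changed the count of a list or ended the call of a named gene, that is given beside the result. The part of the other measures in the results was not tested.

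Markers of skeletal muscle were high on both days. The mean level of 15 skeletal muscle identity genes was 13.54, 13.04, 13.03 and 13.48 in the day 5 arrays, against 13.90, 13.93, 13.96 and 13.91 in the day 1 arrays. The 3 of them that fell were the slow or oxidative genes MB, MYH7 and TNNT1 (1 without day 5 array 2 or 3 or day 1 array 1, 2, 3 or 4; 0 with the spike-in block). MYH4, the fastest heavy chain of myosin, read 12.98, 14.11, 14.01 and 13.77 in the day 5 arrays, against 13.76, 13.996, 13.68 and 14.09 in the day 1 arrays (log2 change -0.16, SE 0.24, adjusted p = 0.708). Its days overlapped, and its probe set has another name in the human homolog column, so closely related myosins cannot be told apart by it. MYH1 averaged 5.06 ± 0.39 at day 5 and 5.19 ± 0.25 at day 1 (SD, n = 4 each), with a change of -0.13 (SE 0.21, adjusted p = 0.732). MYH2 averaged 3.60 ± 0.19 at day 5 and 3.35 ± 0.26 at day 1 (SD, n = 4 each), with a change of 0.25 (SE 0.15, adjusted p = 0.32). Both MYH1 and MYH2 lay below the median of all probe sets, which averaged 6.095 at day 5 and 6.124 at day 1. At such low levels the lack of a call says little about these myosins. Among 11 fast-fibre contractile genes limma called 0, and 0 were higher and 1 lower at an unadjusted p under 0.05. With trend and robust variance 1 fell, and with every probe set of a gene averaged 1 rose and 2 fell. The changes of the list ran from -0.33 to 0.25, with a median of -0.10.

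Slow-fibre contractile genes fell. Of 10 measured, 6 fell, with a median change of -2.03, and the mean level of the list was 11.88, 9.20, 8.91 and 11.19 in the day 5 arrays, against 12.78, 12.61, 12.90 and 12.27 in the day 1 arrays. The days did not overlap, but day 5 arrays 1 and 4 lay close to the day 1 arrays and day 5 arrays 2 and 3 far below them. MYH7, the heavy chain of slow and cardiac myosin, read 13.17, 9.74, 9.22 and 12.41 in the day 5 arrays, against 14.15, 14.14, 14.16 and 13.87 in the day 1 arrays (log2 change -2.94, SE 0.83, adjusted p = 0.0421). TNNT1, the troponin T of slow fibres, read 12.33, 8.22, 7.86 and 11.42 in the day 5 arrays, against 13.88, 13.80, 13.95 and 13.49 in the day 1 arrays (log2 change -3.82, SE 0.95, adjusted p = 0.0267). Both had the order of the list mean among the day 5 arrays, as did MYL3 and TNNI1. MYL3, the slow essential light chain, fell 11.5-fold (log2 change -3.53, SE 0.90, adjusted p = 0.0293). TNNI1, the slow troponin I, fell 11.1-fold (log2 change -3.47, SE 0.88, adjusted p = 0.0285). ATP2A2, the calcium pump of slow fibres, read 12.42, 11.42, 10.61 and 11.96 in the day 5 arrays, against 13.68, 13.55, 13.70 and 13.38 in the day 1 arrays (log2 change -1.98, SE 0.34, adjusted p = 0.00545). PLN, the inhibitor phospholamban of that pump, read 8.96, 6.71, 6.86 and 9.26 in the day 5 arrays, against 11.19, 11.11, 11.73 and 10.44 in the day 1 arrays (log2 change -3.17, SE 0.61, adjusted p = 0.00899). For these 2 genes too every day 5 array lay below every day 1 array. In a whole-muscle sample, fewer slow fibres and less of these RNAs per fibre cannot be told apart. Single arrays decided several calls. The adjusted p of MYH7 was 0.0786 to 0.0987 without day 5 array 2 or 3 or day 1 array 1, 2, 3 or 4. It was 0.0538 to 0.0704 without day 5 array 2 or 3 or day 1 array 1, 2, 3 or 4 for TNNT1, 0.0606 to 0.0789 without day 5 array 2 or 3 or day 1 array 1, 2 or 3 for MYL3 and 0.0518 to 0.0768 without day 5 array 2 or 3 or day 1 array 1, 2, 3 or 4 for TNNI1. The number of genes on the list that fell was 3 without day 1 array 4 and 2 without day 5 array 2 or 3 or day 1 array 1, 2 or 3. With the spike-in block 0 of them were called, with a median change of -1.78. With the replicate block the adjusted p was 0.0618 for MYH7 and 0.0528 for MYL3. ATP2A2 and PLN were not called with the spike-in block (adjusted p 0.137 to 0.224).

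Genes of the Z-disc, where thin filaments are anchored and stretch is sensed, included the largest fall of all called genes. CSRP3, the muscle LIM protein of the Z-disc, read 9.82, 6.45, 5.92 and 7.16 in the day 5 arrays, against 12.90, 12.35, 13.31 and 11.73 in the day 1 arrays (log2 change -5.24, SE 0.79, adjusted p = 0.00286). This was a 37.7-fold fall, with day 5 values spread widely and still below every day 1 array. ANKRD2, a stretch-responsive ankyrin repeat protein, read 8.52, 5.38, 5.36 and 6.27 in the day 5 arrays, against 10.03, 9.02, 10.39 and 9.77 in the day 1 arrays (log2 change -3.42, SE 0.68, adjusted p = 0.009996). LMCD1, a LIM domain protein of the Z-disc, read 10.14, 7.07, 6.54 and 7.31 in the day 5 arrays, against 11.29, 11.07, 11.60 and 11.36 in the day 1 arrays (log2 change -3.56, SE 0.69, adjusted p = 0.00913). In both, day 5 array 1 was again the highest of its day. SMPX, the small muscular protein, read 10.12, 10.63, 10.15 and 10.20 in the day 5 arrays, against 12.77, 12.55, 12.99 and 12.65 in the day 1 arrays (log2 change -2.46, SE 0.14, adjusted p = 0.000145). TCAP, the titin cap, averaged 11.10 ± 0.16 at day 5 and 12.90 ± 0.27 at day 1 (SD, n = 4 each; log2 change -1.80, SE 0.15, adjusted p = 0.000267). These 2 genes fell with little spread within a day. ITGB1BP2, melusin, which binds the tail of integrin beta 1, read 6.75, 8.16, 6.87 and 6.94 in the day 5 arrays, against 10.04, 10.21, 10.54 and 10.82 in the day 1 arrays (log2 change -3.22, SE 0.32, adjusted p = 0.000489). Day 5 array 2 lay above the other day 5 arrays and below all day 1 arrays. Of 30 thick filament, thin filament and Z-disc scaffold genes 12 fell (median change -0.42), and 2 rose (1 without day 5 array 2, 3 or 4 or day 1 array 1, 2, 3 or 4; 0 with the spike-in block). With the spike-in block 5 fell, and the adjusted p was 0.105 for CSRP3, 0.143 for LMCD1 and 0.156 for ANKRD2.

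**Figure D2:**
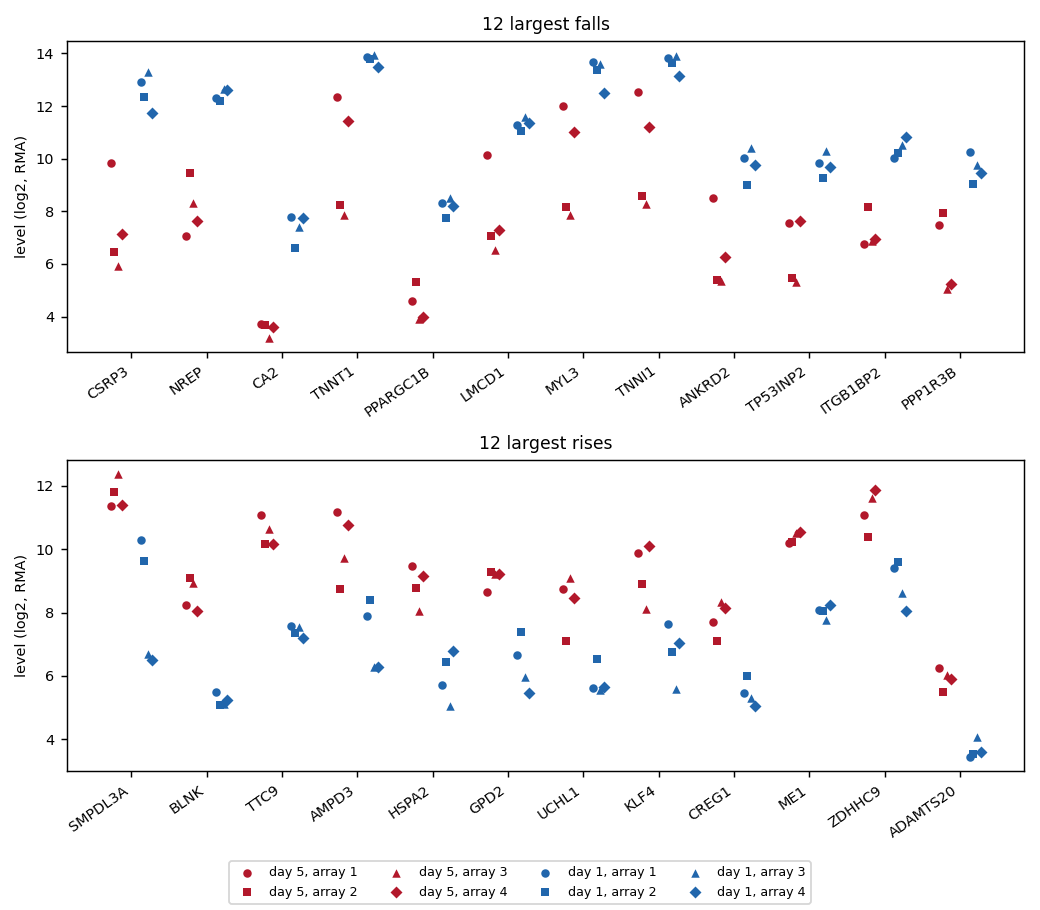
Log2 level in each array of the 12 genes with the largest falls (top) and the 12 with the largest rises (bottom) among called genes whose days do not overlap, with day 5 in red left of day 1 in blue and a marker shape for each array number. CSRP3, TNNT1, MYL3, TNNI1, LMCD1 and ANKRD2 are highest in array 1 among the day 5 arrays, whereas the arrays of a day lie close together for CA2, TTC9 and ME1.

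In the lists of the fibre membrane, its nerve contact and its excitation, more genes fell than rose. Of 13 dystrophin complex and sarcolemma genes 5 fell (2 with the spike-in block) and 1 rose (0 with it). DMD, dystrophin, fell (-0.99, adjusted p = 0.00304), but 3 of its other 11 probe sets changed upward and 1 of these was called. SSPN, sarcospan of the same complex, fell (-1.29, adjusted p = 0.0114). UTRN, utrophin, a relative of dystrophin, read 8.72, 8.12, 7.80 and 8.28 in the day 5 arrays, against 7.13, 7.37, 7.20 and 7.28 in the day 1 arrays (log2 change 0.99, SE 0.18, adjusted p = 0.00695). Every day 5 array lay above every day 1 array. For UTRN, and for CACNA2D1 below, 3 other probe sets changed the same way and 1 the other way. SSPN and UTRN were not called with the spike-in block (adjusted p 0.135 to 0.177). Of 10 neuromuscular junction genes 3 fell (1 with the spike-in block). The median change of the junction list was 0.011. At an unadjusted p under 0.05 in limma's test 2 of its genes were higher and 3 lower. Without day 5 array 4 or day 1 array 3 there was 1 that rose. CHRNA1, an acetylcholine receptor subunit known to rise after denervation, read 6.997, 7.34, 6.73 and 7.19 in the day 5 arrays, against 8.21, 7.62, 7.64 and 7.64 in the day 1 arrays (log2 change -0.72, SE 0.18, adjusted p = 0.0256). It fell, but with an adjusted p of 0.0627 without day 5 array 3, 0.0585 with the replicate block and 0.347 with the spike-in block. NCAM1, an adhesion molecule that denervated fibres are known to express, read 4.44, 4.90, 4.63 and 4.79 in the day 5 arrays, against 5.23, 5.40, 5.59 and 5.76 in the day 1 arrays (log2 change -0.81, SE 0.14, adjusted p = 0.0064). It fell too, and its days did not overlap, but on both days it lay below the median of all probe sets. NREP, a small protein named for its expression in regenerating nerve, read 7.05, 9.47, 8.31 and 7.64 in the day 5 arrays, against 12.31, 12.20, 12.66 and 12.61 in the day 1 arrays (log2 change -4.33, SE 0.45, adjusted p = 0.000585). This was the next largest fall after CSRP3, and every day 5 array lay well below every day 1 array. Of 19 excitation and calcium release genes 5 fell (3 without day 5 array 3 or day 1 array 1, 2 or 3; 1 with the spike-in block), such as CACNA2D1, an auxiliary calcium channel subunit (-1.81, adjusted p = 0.00542), and 2 rose (1 without day 1 array 3; 1 with the spike-in block).

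Of 19 myogenic and denervation-linked regulators 4 rose (0 with the spike-in block). Among them were SIX4, a homeobox factor (0.75, adjusted p = 0.00177), and MEF2A, a muscle transcription factor (1.05, adjusted p = 0.00826); their adjusted p with the block was 0.0506 and 0.217. HDAC4, a histone deacetylase of the denervation response, rose slightly (log2 change 0.40, SE 0.10, adjusted p = 0.0275), but with an adjusted p of 0.0523 to 0.0725 without day 5 array 1 or 4 or day 1 array 1, 2 or 3. It was 0.0605 with the replicate block, 0.452 with the spike-in block, 0.0574 with trend and robust variance, 0.0574 after quantile normalization and 0.11 in the fit of all 18 arrays, and 2 of its other probe sets changed the other way. MYOG, myogenin, averaged 4.62 ± 0.06 at day 5 and 4.82 ± 0.14 at day 1 (SD, n = 4 each) and was not called (log2 change -0.20, SE 0.09, adjusted p = 0.179). These levels too lay below the median of all probe sets, where the lack of a call says little. RUNX1, a denervation-linked transcription factor, read 10.60, 6.997, 7.997 and 7.84 in the day 5 arrays, against 7.25, 6.58, 5.94 and 6.55 in the day 1 arrays (log2 change 1.78, SE 0.70, adjusted p = 0.127). Its day 5 array 1 was far above the others, its days overlapped, and its other probe set changed the other way. In the limma fit of all 18 arrays RUNX1 was called (adjusted p = 0.0279). CHRND and SCN4A are not analysed here.

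Proteasome subunits rose together. Of 14 core subunits, which form the proteolytic barrel, 13 rose (median change 0.92), and of 21 subunits of the regulatory particle, which unfolds tagged proteins, 18 rose (median 1.19). Under the spike-in block 8 core and 15 regulatory subunits rose. PSMD3, a regulatory subunit, read 10.93, 10.61, 10.67 and 10.80 in the day 5 arrays, against 9.08, 8.95, 8.89 and 9.10 in the day 1 arrays (log2 change 1.75, SE 0.10, adjusted p = 0.000124). The arrays of a day lay close together and the days far apart. ADRM1, a ubiquitin receptor of the regulatory particle, rose 4.59-fold (log2 change 2.20, SE 0.10, adjusted p = 9.09e-05), although 1 of its other probe sets changed the other way. PSMC2, an ATPase of the ring, rose 3.09-fold (1.63, adjusted p = 0.000164) and PSMD11, of the lid, 2.73-fold (1.45, adjusted p = 0.000584). In the core, PSMB1 rose 1.91-fold (0.94, adjusted p = 0.000344) and PSMA4 1.87-fold (0.91, adjusted p = 0.000552). PSMA1, another core subunit, read 11.07, 10.22, 10.57 and 10.55 in the day 5 arrays, against 10.03, 9.86, 9.81 and 9.86 in the day 1 arrays (log2 change 0.71, SE 0.17, adjusted p = 0.01998). It rose, but with an adjusted p of 0.0555 to 0.0592 without day 1 array 2 or 3. Of 16 activators, assembly factors and immunosubunits 6 rose (3 with the spike-in block). POMP, the chaperone of core assembly, read 12.33, 12.20, 12.20 and 12.34 in the day 5 arrays, against 10.86, 10.85, 10.89 and 10.42 in the day 1 arrays (log2 change 1.51, SE 0.12, adjusted p = 0.000251). It rose, as did PSMG1, another assembly chaperone (1.23, adjusted p = 0.00036). PSMF1, an inhibitor, rose 2.65-fold (1.41, adjusted p = 0.00037). NFE2L1, the transcription factor known to drive proteasome genes, read 10.62, 9.86, 10.40 and 10.53 in the day 5 arrays, against 9.58, 9.87, 9.39 and 9.42 in the day 1 arrays (log2 change 0.79, SE 0.18, adjusted p = 0.0199). It rose with 1 day 5 array within the day 1 range, but with an adjusted p of 0.0522 to 0.0612 without day 5 array 3 or 4 or day 1 array 3 or 4, and 0.0742 with the replicate block. PSMA1 and NFE2L1 were not called with the spike-in block (adjusted p 0.14 to 0.198).

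Enzymes that attach and remove ubiquitin rose in part. Of 26 ubiquitin genes and conjugating enzymes 12 rose (4 with the spike-in block), and of 22 deubiquitinating enzymes 8 (3 with it). UBE2R2, a conjugating enzyme that works with cullin ligases, read 9.28, 9.10, 9.46 and 9.43 in the day 5 arrays, against 8.05, 8.28, 7.99 and 8.30 in the day 1 arrays (log2 change 1.16, SE 0.12, adjusted p = 0.000509). USP4, a deubiquitinating enzyme, rose 2.09-fold (1.06, adjusted p = 0.000559). UBB, a polyubiquitin gene, read 13.87, 13.85, 13.90 and 14.05 in the day 5 arrays, against 13.78, 13.66, 13.70 and 13.47 in the day 1 arrays (log2 change 0.26, SE 0.09, adjusted p = 0.0915). Its days did not overlap and it was not called. UCHL1, a ubiquitin hydrolase best known from neurons, rose 5.73-fold to 8.76, 7.09, 9.09 and 8.46 in the day 5 arrays, against 5.60, 6.53, 5.56 and 5.64 in the day 1 arrays (log2 change 2.52, SE 0.42, adjusted p = 0.00486). Array 2 stood apart on both days, as the lowest at day 5 and the highest at day 1. UCHL1 was not called with the spike-in block (adjusted p 0.0794). Of 11 muscle ubiquitin ligases 1 fell (2 without day 5 array 3 and 0 without day 1 array 2, and 0 with the spike-in or the replicate block), and without day 5 array 4 there was 1 that rose. The gene that fell was FBXO21 (-0.68, adjusted p = 0.017), but with an adjusted p of 0.0522 without day 1 array 2, 0.0605 with the replicate block and 0.429 with the spike-in block (change -0.34). FBXO32, atrogin-1, a muscle ligase known to rise in atrophy, read 11.11, 11.95, 13.11 and 12.94 in the day 5 arrays, against 12.29, 12.10, 10.99 and 10.62 in the day 1 arrays (log2 change 0.78, SE 0.53, adjusted p = 0.377). Day 5 arrays 3 and 4 were the highest of all 8, day 5 array 1 lay below day 1 arrays 1 and 2, and the gene was not called. FOXO1, a factor known to drive FBXO32, read 11.04, 9.17, 10.68 and 11.13 in the day 5 arrays, against 9.75, 9.33, 9.15 and 8.85 in the day 1 arrays (log2 change 1.23, SE 0.42, adjusted p = 0.0828). FOXO3, another such factor, read 7.92, 7.14, 8.51 and 9.26 in the day 5 arrays, against 7.71, 7.24, 7.40 and 6.90 in the day 1 arrays (log2 change 0.90, SE 0.41, adjusted p = 0.186). Day 5 array 2 was the lowest of its day for both. Without it the adjusted p was 0.00268 for FOXO1 and 0.0355 for FOXO3. Of the other probe sets of each of these 2 genes 3 changed the same way and 1 the other way. FBXO30 is not analysed here.

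Of 36 lysosomal genes 13 rose (8 with the spike-in block), and of 25 autophagosome genes 4 (3 with it). CTSD, cathepsin D, a lysosomal protease, read 10.09, 9.91, 10.14 and 10.29 in the day 5 arrays, against 8.62, 8.87, 8.48 and 8.45 in the day 1 arrays (log2 change 1.50, SE 0.12, adjusted p = 0.000282). It rose evenly, as did NPC2, which carries cholesterol in the lysosome (1.36, adjusted p = 0.000616). CTSL, cathepsin L, a protease known to rise in atrophy, read 6.62, 4.24, 4.48 and 4.64 in the day 5 arrays, against 7.48, 5.12, 4.31 and 3.76 in the day 1 arrays (log2 change -0.18, SE 0.83, adjusted p = 0.923). Array 1 was the highest on both days and the days overlapped. The means of CTSL, 4.99 at day 5 and 5.17 at day 1, lay below the median of all probe sets, where the lack of a call says little. The share that rose was 36.1% of the lysosomal genes, against 13.5% of all genes. That of the autophagosome genes, 16.0%, was near the share of all genes, and their median change was 0.084. ATG3, which helps to attach the membrane tag of autophagosomes, rose 1.997-fold (0.998, adjusted p = 0.000363), ATG12, of the same conjugation system, 1.88-fold (0.91, adjusted p = 0.00162), and GABARAP, such a tag, 2.17-fold (1.12, adjusted p = 0.000827). BNIP3, a receptor for mitochondria in autophagy, read 11.76, 11.56, 11.72 and 12.18 in the day 5 arrays, against 11.35, 11.09, 11.06 and 11.21 in the day 1 arrays (log2 change 0.63, SE 0.14, adjusted p = 0.0174). It rose, but with an adjusted p of 0.0532 to 0.0541 without day 1 array 2 or 3, and 0.228 with the spike-in block. GABARAPL1, a FOXO target, read 9.78, 8.08, 10.15 and 11.14 in the day 5 arrays, against 10.07, 9.66, 8.34 and 7.76 in the day 1 arrays (log2 change 0.83, SE 0.71, adjusted p = 0.491). MAP1LC3B averaged 11.10 ± 0.20 at day 5 and 11.10 ± 0.39 at day 1 (SD, n = 4 each; log2 change -0.0041, SE 0.20, adjusted p = 0.993), and its other probe set rose. Day 5 array 2 was the lowest of its day for both genes. TP53INP2, known to speed autophagosome formation, read 7.56, 5.48, 5.33 and 7.64 in the day 5 arrays, against 9.85, 9.28, 10.30 and 9.70 in the day 1 arrays (log2 change -3.28, SE 0.57, adjusted p = 0.00556). It fell, most in day 5 arrays 2 and 3, and the adjusted p was 0.116 with the spike-in block. SQSTM1 is not analysed here.

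**Figure D3:**
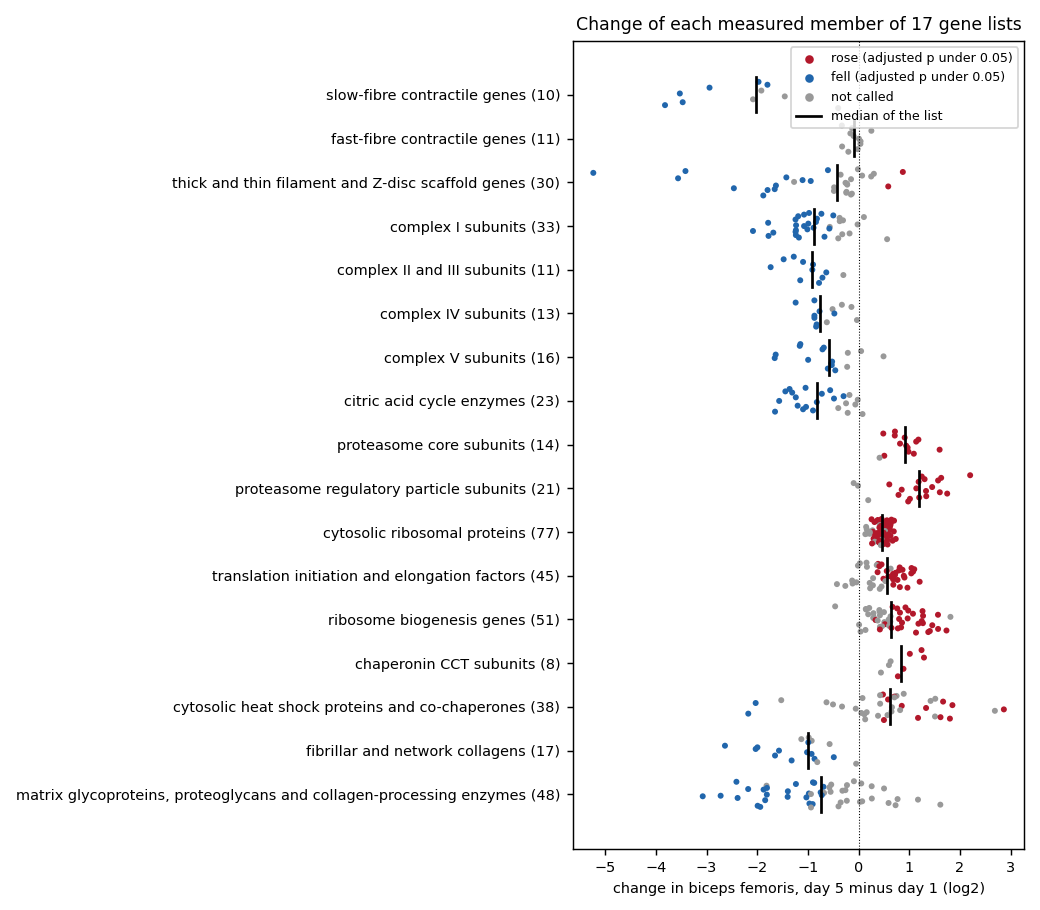
Change of each measured member (a point) of 17 gene lists, day 5 minus day 1 on the log2 scale, with members that rose in red, that fell in blue and that were not called in grey, and the median of each list as a black bar. Ribosomal proteins lie close together around 0.46, slow-fibre genes run down to -3.82, and heat shock genes spread to both sides of 0.

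Genes of protein synthesis rose as well. Of 77 cytosolic ribosomal proteins 65 rose, by small and even amounts (median change 0.46, highest 0.73). RPL5, of the large subunit, read 13.10, 13.10, 13.05 and 13.08 in the day 5 arrays, against 12.29, 12.45, 12.35 and 12.47 in the day 1 arrays (log2 change 0.69, SE 0.08, adjusted p = 0.000706). RPL13 rose 1.62-fold (0.70, adjusted p = 0.000954). Ribosomal proteins have near-identical pseudogene copies that probes may share. Of 45 translation factors 27 rose (median 0.55). EIF3C, a subunit of the factor that binds the small ribosomal subunit, read 11.13, 11.11, 11.23 and 11.14 in the day 5 arrays, against 10.26, 10.16, 10.08 and 9.97 in the day 1 arrays (log2 change 1.04, SE 0.09, adjusted p = 0.000295). EIF2S3, of the factor that brings the initiator tRNA, rose 2.1-fold (1.07, adjusted p = 0.000344). Of 51 ribosome biogenesis genes 27 rose (median 0.63). UTP14A, which acts in processing of ribosomal RNA, read 10.45, 10.38, 10.66 and 10.79 in the day 5 arrays, against 8.88, 9.02, 8.55 and 8.91 in the day 1 arrays (log2 change 1.73, SE 0.13, adjusted p = 0.000228). PES1, of large subunit assembly, rose 2.4-fold (1.27, adjusted p = 0.000164) and POLR1D, a polymerase subunit, 2.73-fold (1.45, adjusted p = 0.000256), although the other probe set of POLR1D changed the other way. The spike-in block left 37 ribosomal proteins, 15 translation factors and 12 biogenesis genes called as risen. Of 21 cytosolic tRNA synthetases 6 rose (2 with the spike-in block, and 1 fell), among them FARSA, of the phenylalanine enzyme (1.42, adjusted p = 0.000251). MTOR, a kinase that drives translation, read 8.35, 8.62, 8.77 and 8.70 in the day 5 arrays, against 7.48, 7.63, 7.60 and 7.82 in the day 1 arrays (log2 change 0.98, SE 0.12, adjusted p = 0.00102). RHEB, its activator, rose 2.06-fold (1.04, adjusted p = 0.00229), with an adjusted p of 0.0846 under the block. EIF4EBP1, which holds back initiation until MTOR phosphorylates it, read 10.98, 11.86, 11.86 and 11.41 in the day 5 arrays, against 10.40, 10.56, 10.42 and 9.92 in the day 1 arrays (log2 change 1.20, SE 0.22, adjusted p = 0.00763). Activator, kinase and inhibitor thus all rose. SRM, spermidine synthase, which makes a polyamine, rose 2.61-fold (1.39, adjusted p = 0.00151).

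Among genes of the amino acid response 8.33% rose and 12.5% fell, near the shares of all genes (13.5% and 9.46%). Of 24 ATF4-linked genes 2 rose (1 with the spike-in block) and 3 fell (2 with it). ATF4, the transcription factor, rose (0.59, adjusted p = 0.00783). PSAT1, a target in serine synthesis, read 7.52, 6.40, 5.93 and 5.48 in the day 5 arrays, against 8.04, 8.23, 7.82 and 8.64 in the day 1 arrays (log2 change -1.85, SE 0.40, adjusted p = 0.0151). It fell, and its days did not overlap, but the adjusted p was 0.085 in the fit of all 18 arrays. ATF4 and PSAT1 were not called with the spike-in block (adjusted p 0.0966 to 0.243). ASNS, asparagine synthetase, another target, read 7.53, 7.93, 8.43 and 7.38 in the day 5 arrays, against 8.90, 9.69, 8.44 and 10.57 in the day 1 arrays (log2 change -1.58, SE 0.45, adjusted p = 0.0427). It fell, but with an adjusted p of 0.0559 to 0.11 without day 5 array 1, 2 or 4 or day 1 array 1, 2 or 4, 0.101 with the replicate block, 0.0521 with array weights and 0.238 in the fit of all 18 arrays. DDIT3, a stress factor downstream of ATF4, read 10.10, 7.62, 6.96 and 9.77 in the day 5 arrays, against 7.36, 8.28, 7.86 and 7.93 in the day 1 arrays (log2 change 0.76, SE 0.68, adjusted p = 0.514). It was high in day 5 arrays 1 and 4 and low in day 5 arrays 2 and 3. In the endoplasmic reticulum 6 of 30 chaperone and stress genes rose (1 with the spike-in block). P4HB, a disulfide isomerase, read 10.92, 10.81, 11.07 and 11.04 in the day 5 arrays, against 9.33, 9.24, 9.36 and 9.50 in the day 1 arrays (log2 change 1.603, SE 0.09, adjusted p = 0.000145). Its other probe set changed the other way. DNAJC3, a co-chaperone, rose 2.19-fold (1.13, adjusted p = 0.00481), but with an adjusted p of 0.1005 under the block.

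Cytosolic chaperones differed widely among the day 5 arrays. The mean level of 38 heat shock proteins and co-chaperones was 10.77, 9.23, 9.35 and 10.06 in the day 5 arrays, against 9.23, 9.18, 9.26 and 9.43 in the day 1 arrays. Day 5 arrays 1 and 4 lay above all day 1 arrays, and day 5 arrays 2 and 3 among them. Of these genes 12 rose (median change 0.61; 6 with the spike-in block), and 2 fell (5 without day 5 array 1 and 1 without day 5 array 2, 3 or 4 or day 1 array 1, 2 or 3; 1 with the spike-in block). STIP1, which hands clients from HSP70 to HSP90, read 12.29, 11.44, 11.55 and 11.96 in the day 5 arrays, against 9.93, 9.91, 9.97 and 10.23 in the day 1 arrays (log2 change 1.80, SE 0.19, adjusted p = 0.000567). It rose in all day 5 arrays, most in arrays 1 and 4. ST13, an HSP70 partner, rose 2.25-fold (1.17, adjusted p = 0.000344) and DNAJB2, a co-chaperone, 3.17-fold (1.66, adjusted p = 0.000759). DNAJB5, another co-chaperone, read 9.16, 7.52, 8.37 and 8.81 in the day 5 arrays, against 10.49, 10.20, 10.48 and 10.81 in the day 1 arrays (log2 change -2.03, SE 0.32, adjusted p = 0.00365). It fell. HSPA2, a member of the HSP70 family, read 9.46, 8.76, 8.04 and 9.17 in the day 5 arrays, against 5.72, 6.45, 5.04 and 6.77 in the day 1 arrays (log2 change 2.86, SE 0.42, adjusted p = 0.00261). It rose 7.28-fold, but the authors' homolog columns name different genes for its probe set. HSPA2 was not called with the spike-in block (adjusted p 0.108). HSPB1, a small heat shock protein, read 14.08, 11.55, 11.87 and 13.16 in the day 5 arrays, against 11.87, 12.06, 11.92 and 12.23 in the day 1 arrays (log2 change 0.65, SE 0.50, adjusted p = 0.449). CRYAB, alpha B-crystallin, read 13.45, 10.71, 10.61 and 12.30 in the day 5 arrays, against 11.70, 11.37, 11.95 and 11.76 in the day 1 arrays (log2 change 0.074, SE 0.59, adjusted p = 0.955). For both the days overlapped, with day 5 arrays 1 and 4 the highest of all 8. The chaperonin CCT, which folds actin and tubulin, rose in 5 of 8 subunits (median 0.83; 3 with the spike-in block). CCT4 read 12.85, 12.26, 12.37 and 12.58 in the day 5 arrays, against 11.28, 11.28, 11.07 and 11.27 in the day 1 arrays (log2 change 1.29, SE 0.14, adjusted p = 0.0006003). CCT2 rose 2.36-fold (1.24, adjusted p = 0.00037).

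Immediate early and stress transcription factors had the same high arrays, with list means of 8.80, 7.83, 7.36 and 9.36 in the day 5 arrays, against 7.95, 7.33, 6.91 and 7.39 in the day 1 arrays. Of 31 genes 3 rose (7 without day 5 array 2, 6 without day 5 array 3 and 1 without day 5 array 4 or day 1 array 2, 3 or 4; 0 with the spike-in block). KLF4, a zinc finger factor, read 9.90, 8.91, 8.10 and 10.09 in the day 5 arrays, against 7.63, 6.75, 5.57 and 7.04 in the day 1 arrays (log2 change 2.50, SE 0.54, adjusted p = 0.0141). It rose 5.67-fold, and the adjusted p was 0.236 with the spike-in block.

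**Figure D4:**
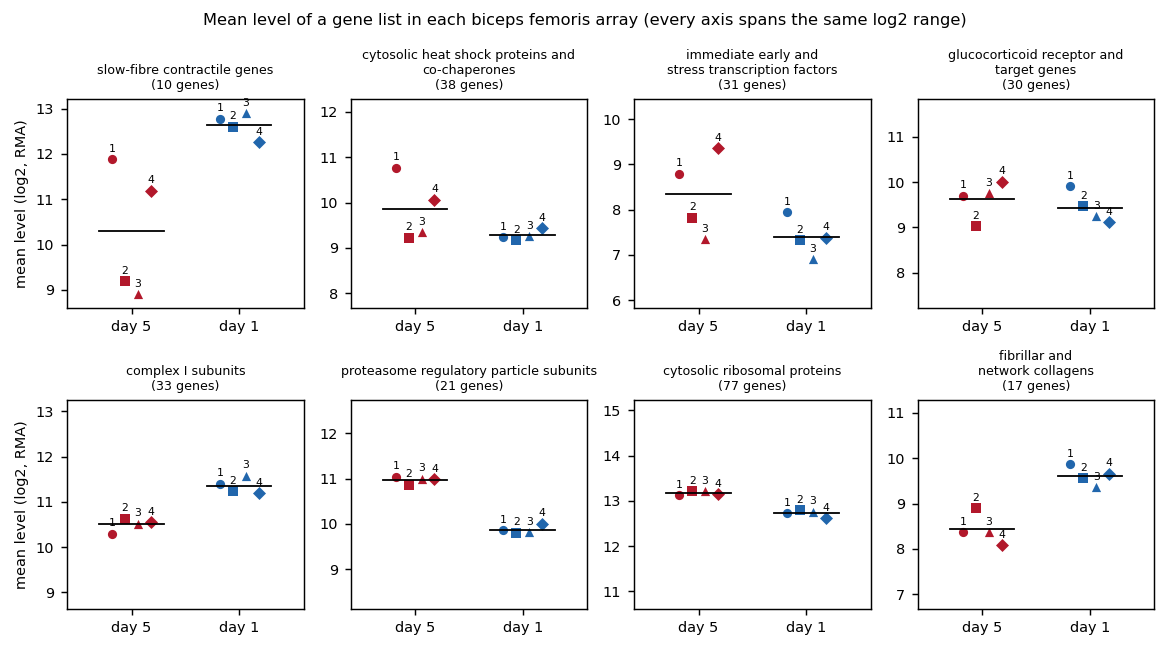
Mean log2 level of 8 gene lists in each array, with day 5 in red left of day 1 in blue, the array number beside each point, the mean of a day as a line, and the same log2 span on every axis. Slow-fibre, heat shock and immediate early genes separate day 5 arrays 1 and 4 from 2 and 3, whereas complex I, proteasome and ribosomal genes are close together within each day.

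Mitochondrial energy genes fell together. Of 33 subunits of complex I 23 fell (median change -0.89). Of 11 subunits of complexes II and III, with the carrier CYCS counted among them, 10 fell (median -0.92). In complex IV 8 of 13 fell (median -0.77), in complex V 12 of 16 (median -0.58), and in the citric acid cycle 16 of 23 (median -0.83). With the spike-in block 12 subunits of complex I, 6 of II and III, 1 of IV and 4 of V and 7 cycle enzymes fell, and 2 subunits of V rose. NDUFB2, of complex I, read 10.11, 9.83, 9.89 and 10.19 in the day 5 arrays, against 11.83, 11.55, 12.10 and 11.69 in the day 1 arrays (log2 change -1.79, SE 0.14, adjusted p = 0.000228). CYCS, cytochrome c, which carries electrons to complex IV, read 10.51, 10.36, 10.21 and 10.26 in the day 5 arrays, against 11.80, 11.64, 12.06 and 11.78 in the day 1 arrays (log2 change -1.48, SE 0.11, adjusted p = 0.000226). For both, the arrays of a day lay close together. NDUFAB1, the acyl carrier protein of complex I, fell 2.37-fold (-1.25, adjusted p = 0.000336). UQCRFS1, the iron-sulfur subunit of complex III, fell 2.23-fold (-1.15, adjusted p = 0.000202) and CYC1, of the same complex, 2.43-fold (-1.28, adjusted p = 0.000334). COX5A, of complex IV, fell 2.37-fold (-1.25, adjusted p = 0.000228). In the ATP synthase ATP5MC3, of the membrane ring, fell 3.16-fold (-1.66, adjusted p = 0.000124) and ATP5F1A, of the catalytic head, 2.22-fold (-1.15, adjusted p = 0.000169). In each of these genes every day 5 array lay below every day 1 array. DLD, shared by dehydrogenases of the cycle, fell 2.48-fold (-1.31, adjusted p = 0.000352), MDH1, the cytosolic malate dehydrogenase, 2.97-fold (-1.57, adjusted p = 0.000563), and SLC25A4, which exchanges ADP for ATP, 1.48-fold (-0.57, adjusted p = 0.0046). SLC25A4 was not called with the spike-in block (adjusted p 0.0637). Genes that make and import mitochondrial proteins were called in both directions. Of the mitochondrial ribosomal proteins 20.8% rose and 13.9% fell, and of the import and folding genes 25.0% and 12.5%. Over all genes these shares were 13.5% and 9.46%. Of 72 mitochondrial ribosomal proteins 15 rose and 10 fell (2 and 4 with the spike-in block), and of 32 import and folding genes 8 rose and 4 fell (4 and 1 with it). MRPL17 read 10.94, 10.93, 11.07 and 10.75 in the day 5 arrays, against 9.77, 9.66, 9.67 and 9.86 in the day 1 arrays (log2 change 1.18, SE 0.10, adjusted p = 0.000257). MRPS36 read 6.16, 6.81, 6.32 and 6.52 in the day 5 arrays, against 7.72, 7.77, 8.47 and 7.89 in the day 1 arrays (log2 change -1.51, SE 0.20, adjusted p = 0.00155). The large-subunit gene MRPL17 rose and MRPS36 fell, both without overlap. MRPS36 is on the list by its symbol, and whether it is part of the mitochondrial ribosome was not examined. MRPS36 was not called with the spike-in block (adjusted p 0.0548).

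PPARGC1B, a coactivator of mitochondrial genes, fell 13.2-fold to 4.61, 5.33, 3.92 and 3.98 in the day 5 arrays, against 8.30, 7.74, 8.50 and 8.19 in the day 1 arrays (log2 change -3.72, SE 0.31, adjusted p = 0.000302). PPARGC1A, its relative, read 9.87, 6.57, 8.40 and 6.95 in the day 5 arrays, against 8.65, 10.67, 9.56 and 9.17 in the day 1 arrays (log2 change -1.56, SE 0.73, adjusted p = 0.197). Its days overlapped; without day 5 array 1 it was called (change -2.21, adjusted p = 0.0318). Of 6 genes on the list of myoglobin and carbonic anhydrases 3 fell (2 with the spike-in block). MB, myoglobin, the oxygen store of oxidative fibres, read 11.98, 10.44, 11.12 and 11.91 in the day 5 arrays, against 14.02, 13.98, 14.05 and 13.63 in the day 1 arrays (log2 change -2.56, SE 0.32, adjusted p = 0.0013). CA2, a carbonic anhydrase, fell 14.3-fold to 3.73, 3.70, 3.20 and 3.60 in the day 5 arrays, against 7.80, 6.62, 7.41 and 7.73 in the day 1 arrays (log2 change -3.84, SE 0.26, adjusted p = 0.000169). CA14, a carbonic anhydrase of the membrane, fell 8.67-fold (-3.12, adjusted p = 0.000182). All 3 were without overlap. MB was not called with the spike-in block (adjusted p 0.0565).

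Of 29 fatty acid oxidation enzymes 9 fell (3 with the spike-in block) and 2 rose (1 without day 5 array 2 or 4 or day 1 array 1, 2 or 4 and 0 without day 5 array 3 or day 1 array 3; 1 with the spike-in block). Of 25 genes of lipid uptake, storage and release 4 fell and 0 rose (2 and 1 with the block). ECI1, an isomerase for unsaturated fatty acids, read 9.21, 8.96, 8.76 and 9.43 in the day 5 arrays, against 11.84, 11.45, 11.86 and 11.35 in the day 1 arrays (log2 change -2.54, SE 0.18, adjusted p = 0.00017). DECR1, a reductase for them, fell 3.73-fold (-1.90, adjusted p = 0.000558). FABP3, the fatty acid carrier of oxidative muscle, read 9.83, 9.92, 9.17 and 9.43 in the day 5 arrays, against 12.92, 12.61, 12.72 and 12.04 in the day 1 arrays (log2 change -2.98, SE 0.23, adjusted p = 0.000224). GPAM, which starts triglyceride synthesis, read 5.83, 5.69, 5.54 and 6.04 in the day 5 arrays, against 8.92, 8.58, 9.27 and 7.69 in the day 1 arrays (log2 change -2.84, SE 0.31, adjusted p = 0.000666). In both genes every day 5 array lay below every day 1 array. Of 30 glycolysis genes 5 fell (9 without day 5 array 1; 2 with the spike-in block) and 2 rose (1 without day 5 array 2, 3 or 4 or day 1 array 1, 2 or 3; 1 with the spike-in block). PGK1, phosphoglycerate kinase, read 11.13, 12.26, 12.23 and 11.73 in the day 5 arrays, against 13.48, 13.48, 13.52 and 13.74 in the day 1 arrays (log2 change -1.72, SE 0.24, adjusted p = 0.00201). PKM, pyruvate kinase, fell 3.03-fold (-1.597, adjusted p = 0.00177). LDHB, the lactate dehydrogenase of oxidative muscle, read 11.63, 10.55, 10.31 and 11.004 in the day 5 arrays, against 12.61, 12.53, 12.54 and 11.72 in the day 1 arrays (log2 change -1.47, SE 0.31, adjusted p = 0.0127). Day 1 array 4 lay far below the other day 1 arrays, and the adjusted p was 0.351 with the spike-in block. PDK4, which blocks pyruvate oxidation, read 12.41, 11.25, 13.02 and 12.90 in the day 5 arrays, against 13.10, 12.96, 12.74 and 12.29 in the day 1 arrays (log2 change -0.38, SE 0.38, adjusted p = 0.567). It was not called, and day 5 array 2 was the lowest of all.

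Of 15 glycogen genes 4 fell (2 with the spike-in block). GYS1, the muscle glycogen synthase, fell 3.04-fold (-1.602, adjusted p = 0.000643) and PYGL, a phosphorylase, 1.98-fold (-0.99, adjusted p = 0.000552). PPP1R3B, which brings a phosphatase to glycogen, read 7.47, 7.92, 5.05 and 5.23 in the day 5 arrays, against 10.24, 9.06, 9.77 and 9.45 in the day 1 arrays (log2 change -3.21, SE 0.67, adjusted p = 0.0122). Day 5 arrays 1 and 2 lay above day 5 arrays 3 and 4 and below every day 1 array. PPP1R3B was not called with the spike-in block (adjusted p 0.192). GPD2, the mitochondrial enzyme of the glycerol phosphate shuttle, rose 6.62-fold to 8.66, 9.28, 9.24 and 9.20 in the day 5 arrays, against 6.67, 7.39, 5.96 and 5.46 in the day 1 arrays (log2 change 2.73, SE 0.38, adjusted p = 0.00206). ME1, malic enzyme, which makes NADPH, rose 5.01-fold to 10.19, 10.23, 10.50 and 10.54 in the day 5 arrays, against 8.07, 8.06, 7.78 and 8.26 in the day 1 arrays (log2 change 2.33, SE 0.13, adjusted p = 0.000124). Of the other 2 probe sets of ME1 1 changed the other way. Of 29 amino acid breakdown enzymes 11 fell (4 with the spike-in block). GOT1, the cytosolic aspartate transaminase of the malate shuttle, fell 6.51-fold (-2.70, adjusted p = 0.000234) and GOT2, its mitochondrial counterpart, 2.03-fold (-1.02, adjusted p = 0.000453). AMPD3, an AMP deaminase, rose 7.42-fold to 11.17, 8.76, 9.73 and 10.77 in the day 5 arrays, against 7.90, 8.39, 6.27 and 6.29 in the day 1 arrays (log2 change 2.89, SE 0.65, adjusted p = 0.0175). Its adjusted p was 0.0506 to 0.0526 without day 5 array 4 or day 1 array 3, and 0.0824 with the spike-in block. In the AMP-activated kinase PRKAB2 fell (-1.32, adjusted p = 0.000774). PRKAG3, the gamma subunit of fast muscle, read 8.14, 8.41, 8.52 and 8.36 in the day 5 arrays, against 6.35, 6.70, 6.15 and 6.50 in the day 1 arrays (log2 change 1.93, SE 0.14, adjusted p = 0.00017). It rose, but its other 2 probe sets changed the other way and were not called.

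Many genes of the matrix around the fibres were lower at the level of RNA. Of 17 collagens 11 fell (median change -0.99), and of 48 matrix glycoproteins, proteoglycans and collagen-processing enzymes 23 (median -0.74). COL1A1, of the main fibrillar collagen, read 9.97, 10.76, 9.84 and 9.22 in the day 5 arrays, against 13.29, 12.64, 11.94 and 12.47 in the day 1 arrays (log2 change -2.64, SE 0.36, adjusted p = 0.00182). COL3A1, of another fibrillar collagen, read 11.84, 12.96, 11.96 and 11.25 in the day 5 arrays, against 13.74, 13.57, 13.52 and 13.47 in the day 1 arrays (log2 change -1.57, SE 0.31, adjusted p = 0.009996). Day 5 array 2 was the highest and day 5 array 4 the lowest of their day for both. Of the other probe sets of COL3A1 1 changed the same way and 1 the other way. COL4A2, of basement membranes, read 9.96, 9.80, 9.77 and 9.91 in the day 5 arrays, against 10.67, 10.91, 10.99 and 10.59 in the day 1 arrays (log2 change -0.93, SE 0.11, adjusted p = 0.001001). It fell with less spread. MFAP5, of elastic microfibrils, fell 8.44-fold to 7.26, 7.90, 7.50 and 6.80 in the day 5 arrays, against 11.07, 10.36, 10.30 and 10.05 in the day 1 arrays (log2 change -3.08, SE 0.28, adjusted p = 0.000344). TNXB, tenascin X, fell 3.84-fold (-1.94, adjusted p = 0.000935), although its other probe set changed the other way, and SPARC, a collagen-binding protein, 1.96-fold (-0.97, adjusted p = 0.00267). Of the small proteoglycans LUM, lumican, fell 3.51-fold (-1.81, adjusted p = 0.00387) and DCN, decorin, 2.36-fold (-1.24, adjusted p = 0.0112). FSTL1, a secreted glycoprotein, fell 2.76-fold (-1.47, adjusted p = 0.00328) and MMP11, a matrix protease, 3.48-fold (-1.80, adjusted p = 0.00307). Fibroblast markers, some of which are on the matrix lists, moved with them. Of 10 measured 6 fell, and their mean level was 8.17, 8.90, 8.40 and 7.99 in the day 5 arrays, against 10.04, 9.67, 9.44 and 9.53 in the day 1 arrays. Their part in the fall of the matrix genes was not tested. When the spike-in block was used 3 collagens, 5 genes of the longer matrix list and 1 fibroblast marker fell. COL1A1, COL3A1, SPARC, LUM, DCN, FSTL1 and MMP11 were not called with the spike-in block (adjusted p 0.0619 to 0.207).

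Glucocorticoid-linked genes varied among the day 5 arrays. The mean level of 30 receptor and target genes was 9.70, 9.03, 9.75 and 10.01 in the day 5 arrays, against 9.92, 9.47, 9.24 and 9.11 in the day 1 arrays, with day 5 array 2 the lowest of all. Of these genes 1 rose, 6 rose without day 5 array 2, and 2 with the spike-in block. The gene called was CDKN1A, a cell cycle inhibitor and p53 target too, which rose 3.94-fold to 12.66, 11.55, 11.83 and 11.79 in the day 5 arrays, against 10.21, 10.27, 9.51 and 9.94 in the day 1 arrays (log2 change 1.98, SE 0.26, adjusted p = 0.00151). FKBP5, a co-chaperone of the receptor and a classic target, read 11.20, 10.25, 10.96 and 11.41 in the day 5 arrays, against 10.83, 10.55, 10.12 and 8.83 in the day 1 arrays (log2 change 0.87, SE 0.43, adjusted p = 0.224). Its adjusted p was 0.037 with the spike-in block. TSC22D3, the glucocorticoid-induced leucine zipper, read 12.06, 9.35, 11.24 and 11.62 in the day 5 arrays, against 10.72, 10.48, 10.20 and 10.07 in the day 1 arrays (log2 change 0.70, SE 0.52, adjusted p = 0.428). GLUL, glutamine synthetase, a target in muscle, read 12.35, 11.29, 12.72 and 12.58 in the day 5 arrays, against 12.25, 11.89, 11.98 and 11.75 in the day 1 arrays (log2 change 0.27, SE 0.30, adjusted p = 0.601). In these 3 genes day 5 array 2 was the lowest of its day. Of the other probe sets of FKBP5 1 changed the same way and 1 the other way. Without day 5 array 2 the adjusted p was 0.00928 for TSC22D3 and 0.0326 for GLUL. KLF15, a zinc finger factor induced by glucocorticoids, read 6.78, 8.27, 9.83 and 9.98 in the day 5 arrays, against 9.53, 8.81, 8.50 and 8.30 in the day 1 arrays (log2 change -0.069, SE 0.68, adjusted p = 0.963). CEBPD, a leucine zipper factor, read 11.46, 9.83, 12.13 and 11.96 in the day 5 arrays, against 12.07, 11.10, 10.51 and 9.83 in the day 1 arrays (log2 change 0.47, SE 0.60, adjusted p = 0.663). MT1A, a metallothionein, read 8.22, 8.60, 9.08 and 8.25 in the day 5 arrays, against 9.99, 8.53, 6.81 and 6.49 in the day 1 arrays (log2 change 0.58, SE 0.71, adjusted p = 0.644). None of the 3 was called, and day 1 array 1 was the highest of its day for each. The other 2 probe sets of MT1A changed the other way. MT2A is not analysed here. RORA, a nuclear receptor of the clock, rose 4.28-fold to 10.35, 10.27, 10.44 and 10.53 in the day 5 arrays, against 8.52, 8.37, 8.11 and 8.20 in the day 1 arrays (log2 change 2.10, SE 0.11, adjusted p = 0.000124), 1 of 3 rises among 20 clock genes (1 with the spike-in block).

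Growth signals did not move together. Of 29 insulin, IGF, AKT, mTOR and FOXO genes 4 rose (8 without day 5 array 2; 3 with the spike-in block) and 3 fell. Of 33 myostatin, TGF-beta, BMP and ID genes 3 rose (1 without day 5 array 3 or day 1 array 1, 2 or 3; 0 with the spike-in block) and 4 fell (1 with it). These shares are near those of all genes. IGF1, a growth factor made in muscle, read 8.46, 7.99, 6.29 and 7.16 in the day 5 arrays, against 8.49, 8.88, 9.06 and 9.03 in the day 1 arrays (log2 change -1.39, SE 0.42, adjusted p = 0.0562). The days did not overlap. It was called without day 5 array 1 (adjusted p = 0.0149) and in 5 of 9 other fits (adjusted p 0.0119 to 0.0445). MSTN, myostatin, which limits muscle mass, read 5.62, 9.66, 8.49 and 7.44 in the day 5 arrays, against 6.68, 6.53, 7.50 and 7.31 in the day 1 arrays (log2 change 0.80, SE 0.75, adjusted p = 0.54). Its day 5 arrays held both the lowest and the highest of the 8 values. IGFBP6, an IGF-binding protein, fell 2.9-fold (-1.53, adjusted p = 0.000464). IGFBP5, another binding protein, read 8.35, 10.62, 10.08 and 9.75 in the day 5 arrays, against 10.79, 10.43, 9.95 and 10.36 in the day 1 arrays (log2 change -0.68, SE 0.44, adjusted p = 0.353). Day 5 array 1 lay below the rest. GADD45A, a stress gene known to rise in denervation, read 11.83, 10.83, 12.04 and 12.17 in the day 5 arrays, against 11.54, 9.25, 8.67 and 7.95 in the day 1 arrays (log2 change 2.37, SE 0.70, adjusted p = 0.0526). Day 1 array 1 lay within the range of day 5. Without it the change was 3.09 and was called (adjusted p = 0.00366), and it was called in 5 of 9 other fits (adjusted p 0.0403 to 0.0498). Of 43 cell cycle genes 11 fell (7 without day 5 array 3; 2 with the spike-in block) and 5 rose (3 without day 5 array 3 or day 1 array 1 or 4; 3 with the spike-in block). TOP2A, a topoisomerase of dividing cells, fell to 3.96, 4.16, 4.28 and 5.02 in the day 5 arrays, against 5.84, 6.27, 7.002 and 6.03 in the day 1 arrays (log2 change -1.93, SE 0.30, adjusted p = 0.0032). TOP2A was not called with the spike-in block (adjusted p 0.106). CCNE1, a cyclin, rose 2.22-fold (1.15, adjusted p = 0.000224) and CDK4, a cyclin-dependent kinase, 1.96-fold (0.97, adjusted p = 0.000902).

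Few inflammatory genes were called. Of 38 inflammatory signalling genes 2 rose (1 without day 5 array 1 or 2 or day 1 array 2, 3 or 4; 0 with the spike-in block) and 1 fell (2 without day 5 array 1; 0 with the spike-in block). IL6, a cytokine, read 3.80, 4.19, 4.46 and 6.39 in the day 5 arrays, against 4.78, 4.04, 4.21 and 3.68 in the day 1 arrays (log2 change 0.53, SE 0.53, adjusted p = 0.562). STAT3, its transcription factor, read 10.09, 8.51, 8.77 and 9.04 in the day 5 arrays, against 10.24, 9.50, 8.82 and 9.02 in the day 1 arrays (log2 change -0.29, SE 0.40, adjusted p = 0.686). SOCS3, their feedback inhibitor, read 6.82, 6.13, 5.83 and 7.68 in the day 5 arrays, against 6.62, 6.11, 5.82 and 5.88 in the day 1 arrays (log2 change 0.50, SE 0.38, adjusted p = 0.439). For these 3 genes the days overlapped, and day 5 array 4 was the highest of all for IL6 and SOCS3. The means of IL6, 4.71 at day 5 and 4.18 at day 1, lay below the median of all probe sets, where the lack of a call says little. Of 38 interferon response and antigen presentation genes 6 fell (median change -0.72; 12 without day 1 array 3, 3 without day 5 array 3 and 2 without day 1 array 1 or 2), and their mean level was 7.36, 7.71, 7.73 and 8.19 in the day 5 arrays, against 9.30, 8.85, 7.86 and 8.29 in the day 1 arrays. Day 1 array 3 was the lowest of its day. The number that fell was 0 with the spike-in block. IFI44L, an interferon target, read 7.96, 8.35, 8.32 and 8.43 in the day 5 arrays, against 10.19, 10.13, 8.90 and 9.77 in the day 1 arrays (log2 change -1.48, SE 0.27, adjusted p = 0.00742). Of its other probe sets 1 changed the other way. IFI44L was not called with the spike-in block (adjusted p 0.123). The mean level of 20 macrophage and leukocyte markers was 6.64, 6.33, 6.45 and 6.73 in the day 5 arrays, against 6.96, 6.60, 6.48 and 6.06 in the day 1 arrays. Limma called 0 of them, 3 were higher and 0 lower at an unadjusted p under 0.05, and the number that rose was 2 without day 5 array 2 and 1 without day 5 array 1, and 1 with array weights, with median centring or without the probe sets of lowest mean level. CD163, a macrophage receptor, read 8.72, 6.56, 7.32 and 8.09 in the day 5 arrays, against 9.68, 7.93, 7.95 and 7.22 in the day 1 arrays (log2 change -0.52, SE 0.60, adjusted p = 0.62). Day 1 array 1 was the highest for this marker.

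Of 36 thioredoxin, glutathione and NRF2-linked genes 10 rose (6 with the spike-in block) and 7 fell (4 without day 5 array 3 or day 1 array 1 and 3 without day 1 array 3; 2 with the spike-in block). TXN, cytosolic thioredoxin, rose 3.66-fold to 12.34, 11.79, 11.79 and 12.07 in the day 5 arrays, against 10.21, 10.33, 10.27 and 9.69 in the day 1 arrays (log2 change 1.87, SE 0.18, adjusted p = 0.000415). KEAP1, the brake on NRF2, rose 2.23-fold (1.16, adjusted p = 0.000458). PRDX3, a mitochondrial peroxiredoxin, fell 1.99-fold (-0.99, adjusted p = 0.000267) and SELENOW, a selenoprotein abundant in muscle, 3.06-fold (-1.62, adjusted p = 0.00017). The largest rise of a called gene was that of SMPDL3A, a secreted phosphodiesterase, with 11.38, 11.81, 12.38 and 11.41 in the day 5 arrays, against 10.29, 9.63, 6.69 and 6.51 in the day 1 arrays (log2 change 3.47, SE 0.85, adjusted p = 0.025). Day 1 arrays 1 and 2 lay far above day 1 arrays 3 and 4, and the test gave an adjusted p of 0.0508 to 0.0688 without day 5 array 2, 3 or 4 or day 1 array 3 or 4. BLNK, an adaptor best known from B cells, rose 10.2-fold to 8.22, 9.11, 8.94 and 8.04 in the day 5 arrays, against 5.50, 5.08, 5.12 and 5.24 in the day 1 arrays (log2 change 3.34, SE 0.24, adjusted p = 0.000197). Of 13 T, NK and B cell markers limma called 0, 0 at an unadjusted p under 0.05, and 0 in every other fit listed for biceps femoris. The mean level of these markers, 5.05 at day 5 and 5.03 at day 1, lay below the median of all probe sets. At such levels the lack of a call says little about them. TTC9, a tetratricopeptide repeat protein, rose 8.59-fold to 11.09, 10.17, 10.65 and 10.18 in the day 5 arrays, against 7.58, 7.37, 7.53 and 7.20 in the day 1 arrays (log2 change 3.10, SE 0.21, adjusted p = 0.000169). CREG1, a secreted glycoprotein, rose 5.17-fold to 7.69, 7.10, 8.35 and 8.16 in the day 5 arrays, against 5.47, 5.999, 5.30 and 5.05 in the day 1 arrays (log2 change 2.37, SE 0.30, adjusted p = 0.00121). In both every day 5 array lay above every day 1 array. ZDHHC9, a palmitoyltransferase, rose 5.01-fold (2.32, adjusted p = 0.00659) and ADAMTS20, a secreted protease, 4.75-fold (2.25, adjusted p = 0.000309). Of their other probe sets 2 of 3 and 1 of 2 changed the other way.

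The changes were set against those in masseter, a chewing muscle sampled at day 5 (5 arrays) and day 1 (5 arrays). Only changes within a muscle were compared, since the sorted values of a biceps femoris and a masseter array differed by at least 0.517 at their widest, against at most 0.23 between biceps femoris arrays, so the muscles appear to have been normalized apart. Of 9893 genes 24 (0.243%) differed at an adjusted p under 0.05 in limma's test of the difference. Of these 18 were called in biceps femoris, 12 up and 6 down. FABP3 changed by -2.98 in biceps femoris, against -0.59 in masseter (difference -2.39, SE 0.35, adjusted p = 0.0107). GPAM changed by -2.84 in biceps femoris, against -0.76 in masseter (difference -2.08, SE 0.40, adjusted p = 0.0465). Both were called in biceps femoris and not in masseter (adjusted p there 0.095 and 0.0608). The next 4 genes were chosen after their values were seen. AHCYL1, which binds the inositol trisphosphate receptor, read 7.93, 7.75, 7.65 and 7.88 in the day 5 arrays of biceps femoris, against 9.38, 9.73, 9.50 and 9.29 in the day 1 arrays. It changed by -1.67 in biceps femoris, against -0.48 in masseter (difference -1.19, SE 0.15, adjusted p = 0.00644). CD164, a sialomucin, changed by 1.18 in biceps femoris, against 0.10 in masseter (difference 1.08, SE 0.16, adjusted p = 0.0107). HOXC9, a homeobox gene of position along the body, changed by 0.76 in biceps femoris, against -0.28 in masseter (difference 1.04, SE 0.13, adjusted p = 0.00644). GCDH, glutaryl-CoA dehydrogenase, changed by 0.26 in biceps femoris, against -1.20 in masseter (difference 1.47, SE 0.21, adjusted p = 0.0107). For MYH7, TNNT1 and CSRP3 the difference was not called. MYH7 changed by -2.94 in biceps femoris, against -0.24 in masseter (adjusted p of the difference 0.171). TNNT1 changed by -3.82 in biceps femoris, against -0.50 in masseter (adjusted p of the difference 0.153), and CSRP3 by -5.24, against -1.36 (adjusted p of the difference 0.281). The fit took arrays of the same animals as independent. The count of probe sets that differed was 48 of 23999 (0.200%), and leaving out single arrays moved it by over 1.5 times in 14 of 18 cases, to 266, 18, 9 and 20 without day 5 array 1, 2, 3 and 4 and 13 and 12 without day 1 array 1 and 2 of biceps femoris, taken in turn, and to 12, 29 and 17 without day 5 array 2, 3 and 5 and 11, 20, 91, 10 and 10 without day 1 array 1, 2, 3, 4 and 5 of masseter. AHCYL1, HOXC9, ZNF79, FABP3, CD164 and GCDH were called in all 18 of these fits and GPAM in 4.

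**Figure D5:**
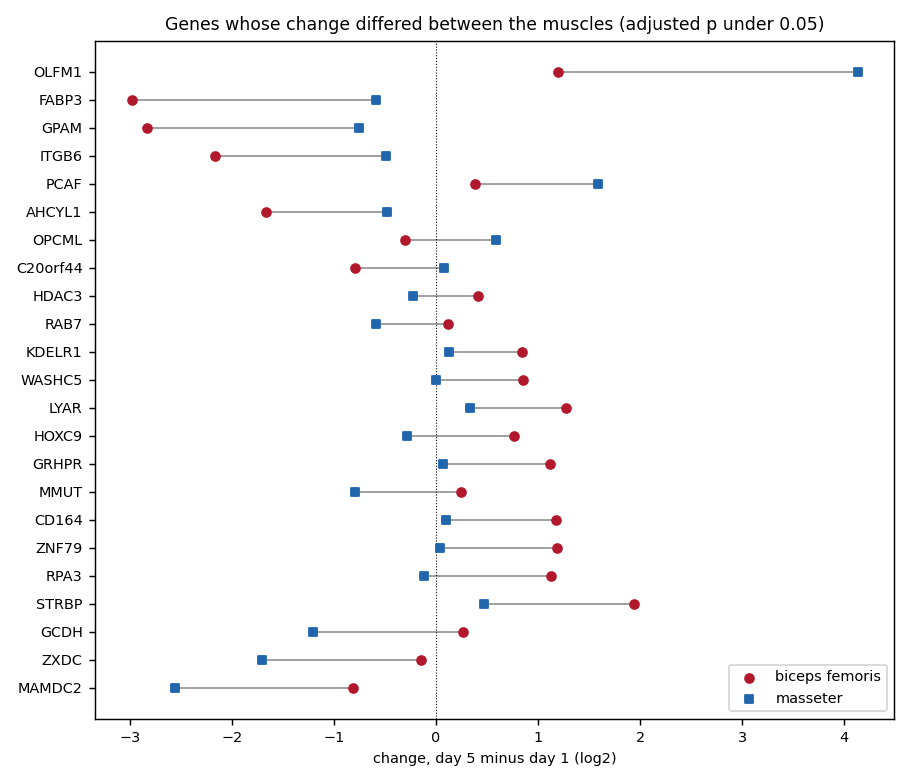
Change from day 1 to day 5 on the log2 scale in biceps femoris (red circles) and masseter (blue squares) of 23 of the 24 genes whose change differed between the muscles at an adjusted p under 0.05, ordered by the difference. The changes of FABP3, GPAM, ITGB6 and AHCYL1 were more negative in biceps femoris than in masseter, and that of OLFM1 was 1.20 in biceps femoris, against 4.14 in masseter.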

How the data were processed

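Biceps femoris was measured on 8 arrays, and the fit of both muscles used all 18. Per the submitters' processing notes the authors made the deposited log2 intensities with RMA; its version is not given in the sources used here. The deposited tables also hold the authors' adjusted p-values, a B-statistic score for each probe set and the ratio of day 5 to day 1 for chosen genes, per the file headers. None of these 3 was used for a result.

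Each probe set was fitted with limma 3.58.1 in R 4.3.3 (lmFit and eBayes, day as the only term), two-sided, with Benjamini-Hochberg adjustment over 23999 probe sets. The difference between muscles came from 1 limma fit of 4 groups. Spike-ins were compared by exact permutation. Gene names came from the pig annotation and, where it gave none, from the human homolog columns. A single symbol was found for 19006 probe sets, of which the homolog contradicts the pig annotation in 250, MYH4 and SIX4 among them, and the homolog columns disagree in 461, HSPA2, COL1A1, CRYAB, CTSL and MYH1 among them. Ranking by the highest mean picks 1 probe set a gene, and other probe sets can differ.

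Genes given with values are the 12 largest rises and the 12 largest falls among called genes without overlap, up to 3 called members of smallest p for each list and direction, and a fixed set of muscle, atrophy, glucocorticoid and inflammation genes. The members and lists were chosen with earlier results of these data known. In data simulated for this comparison, 78 of 100 changes of 1 log2 unit and 95 of 100 of 2 log2 units were called, with 6 calls among the unchanged of 23999 probe sets. The simulated noise was independent between probe sets, without effects shared across an array. Far fewer probe sets were changed than were called in the measured data. The simulated rates may thus not hold for the measured arrays. A few genes are not reported here. Promoter motifs and sequences were not analysed here.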

Additional observations from a re-analysis of the deposited data

Results flagged for a closer look

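In 24 of 348 groups of 4 arrays, 1 array lay far from the other 3 of its day by Dixon's test; chance gives about 1 in 20. Values are log2 levels, followed by the range of the other 3 arrays. In day 5 array 1 GPD2 read 8.662 against 9.204 to 9.28, CTSL read 6.616 against 4.244 to 4.636, MDH1 read 10.702 against 11.249 to 11.344 and SLC25A4 read 12.457 against 12.71 to 12.76. Also in day 5 array 1 the cre spike-in read 13.178 against 12.986 to 13.003 and the gap of the actin 3′ and 5′ probe sets read 2.045 against 1.038 to 1.155. In day 5 array 2 ITGB1BP2 read 8.156 against 6.747 to 6.936, SMPX read 10.627 against 10.122 to 10.196 and ATP5MC3 read 11.486 against 11.332 to 11.352. In day 5 array 3 MYOG read 4.704 against 4.579 to 4.598 and the lys poly-A spike-in read 4.361 against 4.217 to 4.24. In day 1 array 1 CHRNA1 read 8.212 against 7.625 to 7.643, USP4 read 7.023 against 6.896 to 6.916, TNXB read 9.488 against 8.536 to 8.666 and the phe poly-A spike-in read 4.593 against 4.681 to 4.697. In day 1 array 2 UCHL1 read 6.528 against 5.564 to 5.639. In day 1 array 3 CCT4 read 11.071 against 11.269 to 11.282. In day 1 array 4 MYH7 read 13.866 against 14.136 to 14.165, POMP read 10.417 against 10.849 to 10.895, GABARAP read 11.408 against 11.832 to 11.913 and DECR1 read 8.676 against 9.293 to 9.403. Also in day 1 array 4 PGK1 read 13.744 against 13.479 to 13.524, LDHB read 11.717 against 12.527 to 12.606 and the cre spike-in read 13.281 against 13.002 to 13.025.

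For 24 genes the change in biceps femoris minus the change in masseter passed limma's test of that difference, and 23 are given here (adjusted p 0.0064 to 0.0467). The difference was -2.94 for OLFM1 (1.20 in biceps femoris, 4.14 in masseter), -2.39 for FABP3 (-2.98 in biceps femoris, -0.59 in masseter), -2.08 for GPAM (-2.84 in biceps femoris, -0.76 in masseter) and -1.68 for ITGB6 (-2.17 in biceps femoris, -0.49 in masseter). It was -1.20 for PCAF (0.38 in biceps femoris, 1.59 in masseter), -1.19 for AHCYL1 (-1.67 in biceps femoris, -0.48 in masseter), -0.89 for OPCML (-0.31 in biceps femoris, 0.58 in masseter) and -0.88 for C20orf44 (-0.80 in biceps femoris, 0.08 in masseter). The difference was 1.74 for MAMDC2 (-0.82 in biceps femoris, -2.56 in masseter), 1.56 for ZXDC (-0.15 in biceps femoris, -1.71 in masseter), 1.47 for GCDH (0.26 in biceps femoris, -1.20 in masseter) and 1.46 for STRBP (1.94 in biceps femoris, 0.47 in masseter). It was 1.24 for RPA3 (1.13 in biceps femoris, -0.12 in masseter), 1.14 for ZNF79 (1.18 in biceps femoris, 0.043 in masseter), 1.08 for CD164 (1.18 in biceps femoris, 0.10 in masseter) and 1.04 for GRHPR (1.11 in biceps femoris, 0.07 in masseter). It was 1.04 for MMUT (0.24 in biceps femoris, -0.80 in masseter), 1.04 for HOXC9 (0.76 in biceps femoris, -0.28 in masseter), 0.94 for LYAR (1.27 in biceps femoris, 0.33 in masseter) and 0.85 for WASHC5 (0.85 in biceps femoris, -0.005 in masseter). It was 0.72 for KDELR1 (0.84 in biceps femoris, 0.12 in masseter), 0.71 for RAB7 (0.12 in biceps femoris, -0.59 in masseter) and 0.63 for HDAC3 (0.41 in biceps femoris, -0.22 in masseter). PCAF, RAB7 and C20orf44 are older symbols of the deposited annotation, and the annotation columns disagree on OLFM1.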

How the results depend on the processing

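As reported 4117 probe sets were called, and with the replicate block 3041, of which 2898 were among the 4117. Whether the replicate numbers pair the arrays is not known: same-numbered arrays had deviations that correlated at 0.096, -0.109, 0.112 and -0.21, and 2 of 4 day 5 arrays correlated best with their own number. With array weights 5241 were called, with trend and robust variance 3877, after quantile normalization 3991, with median centring 4171 (62.2% of them higher, against 57.6%), without the probe sets of lowest mean 4106, and in the fit of all 18 arrays 4352. With the spike-in block 1306 were called. Leaving out each array gave 2951 (without day 1 array 3) to 4412 (without day 5 array 1). Of the 130 named genes that were called, 123 kept the call with the replicate block, 88 with the spike-in block, 127 to 130 in the other fits and 120 to 128 with an array left out, and 0 were called in the other direction. Genes that were not called changed sign in some fits, and the cause was not tested. With array weights the change was 0.015 for MYH1, -0.27 for CRYAB and 0.39 for KLF15. With the spike-in block it was -0.11 for MYH2, 0.49 for MAP1LC3B, 1.23 for CTSL, 0.11 for PDK4, 0.41 for KLF15, 0.080 for STAT3 and 0.45 for CD163. MAP1LC3B changed by 0.025 with median centring. With every probe set of a gene averaged, MAP1LC3B changed by 0.30 and MT1A by -0.051. With an array left out, the change ran from -0.30 to 0.079 for MYH4, -0.17 to 0.13 for MAP1LC3B, -0.72 to 0.59 for CTSL, -0.59 to 0.0042 for PDK4, -0.49 to 0.46 for CRYAB, -0.49 to 0.58 for KLF15 and -0.029 to 0.84 for IL6. The count of probe sets that differed between the muscles was 48 as reported, 527 with array weights, 24 with trend and robust variance, and 9 to 266 with an array left out. The number of arrays limits the precision. Motif searches that had been planned were not run.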

Other observations

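Splicing factors rose more often than they fell: 16 of 57 rose and 2 fell (median change 0.25; 7 and 0 with the spike-in block), where 13.5% of all genes rose and 9.46% fell. The day 5 arrays varied more than the day 1 arrays for 6137 of 9893 genes, and the SD exceeded 1 log2 unit for 243 genes at day 5 and for 100 at day 1. The cause was not tested. Of the 2274 genes called in biceps femoris, 2119 changed with the same sign in masseter, and for 1918 the change was larger in biceps femoris; these genes were chosen by their change in biceps femoris, so the sizes are not a test.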
